A study of Mus musculus with 18 samples.

Results

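Rat hearts carrying a titin splicing mutation were compared with wild-type hearts at 49 days of age. The comparison takes every array whose description names mutant or wild-type rat heart at that age, which gives 3 mutant and 3 wild-type arrays, 6 of the 18 in the series, over all probe sets that are not controls. The other 12 arrays hold both genotypes at day 1 and day 20, again with 3 animals each, and serve here to show when a difference appeared. The mutant animals were homozygous, per the series design text. The mutation arose in Sprague-Dawley rats that were then crossed with Fisher 344 inbreds, and both groups come from this stock. The labels do not tell which mutant and wild-type animals shared a litter. The organism field of the labels reads mouse, but rat is what the strains, the array and the sample descriptions name. The design text speaks of ventricular RNA from single animals and the titles of whole heart, so the presence of atrial tissue is not settled by the labels.

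Titin is the giant spring of the sarcomere, and its length is set by alternative splicing of the exons that encode its elastic part. RBM20 is a muscle splicing regulator that represses inclusion of many of these exons, and work on this rat line traced the long titin forms to a deletion in the Rbm20 gene. In the weeks after birth the rodent heart normally replaces beta by alpha myosin heavy chain, raises fatty acid use and acquires the ion channels of the adult ventricle.

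Levels are log2 values per probe set as made by robust multi-array analysis (RMA), in which 1 unit is a doubling and levels of different probe sets cannot be set against each other. RMA gives dim probe sets a level that is mostly background, and the array medians lay between 5.42 and 5.50. Correlations between arrays of day 49 were 0.991 to 0.994 within a genotype and 0.989 to 0.992 between genotypes. The 18 hybridization control probe sets, which read RNA added after labelling, averaged 8.42, 9.01 and 9.90 on mutant arrays 1 to 3 and 10.16, 9.84 and 9.99 on the wild-type arrays. Xist, the RNA of the inactive X chromosome, was high on mutant arrays 2 and 3 and wild-type arrays 1 and 2. It was low on mutant array 1 and wild-type array 3 (3.55 and 3.56), so each group held 2 females and 1 male. Where the text tells the effect of leaving out 1 array, M1 to M3 are the mutant arrays and W1 to W3 the wild-type arrays of day 49. Cardiomyocyte genes were strongly expressed on every array: the mean level of 14 marker genes was 13.06 to 13.10 in the mutant and 13.12 to 13.14 in the wild type, with none called.

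Of 31042 probe sets tested, 188 (0.606%) differed between mutant and wild type at day 49 at an adjusted p below 0.05 in limma's moderated test with Benjamini-Hochberg adjustment over all of them. The mutant was higher for 73 (0.235%) and lower for 115 (0.37%), and 124 named genes were among them. The differences were mostly modest: the median was 0.95 on the log2 scale among the higher and -0.74 among the lower, the smallest was 0.41 in size, and 65 probe sets differed by at least 1 (31 higher, 34 lower). In 187 of the 188 the 3 mutant arrays did not overlap the 3 wild-type arrays, which held for 4240 of all probe sets (13.7%). The median difference over all probe sets was 0.01, with a median SE of 0.12. The count depends on single arrays: it was 109, 120 and 123 without wild-type array 1, 2 or 3, and 161, 143 and 156 without mutant array 1, 2 or 3. It was 116 without mutant arrays 1 and 2, the pair with the lowest hybridization controls.

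**Figure D1:**
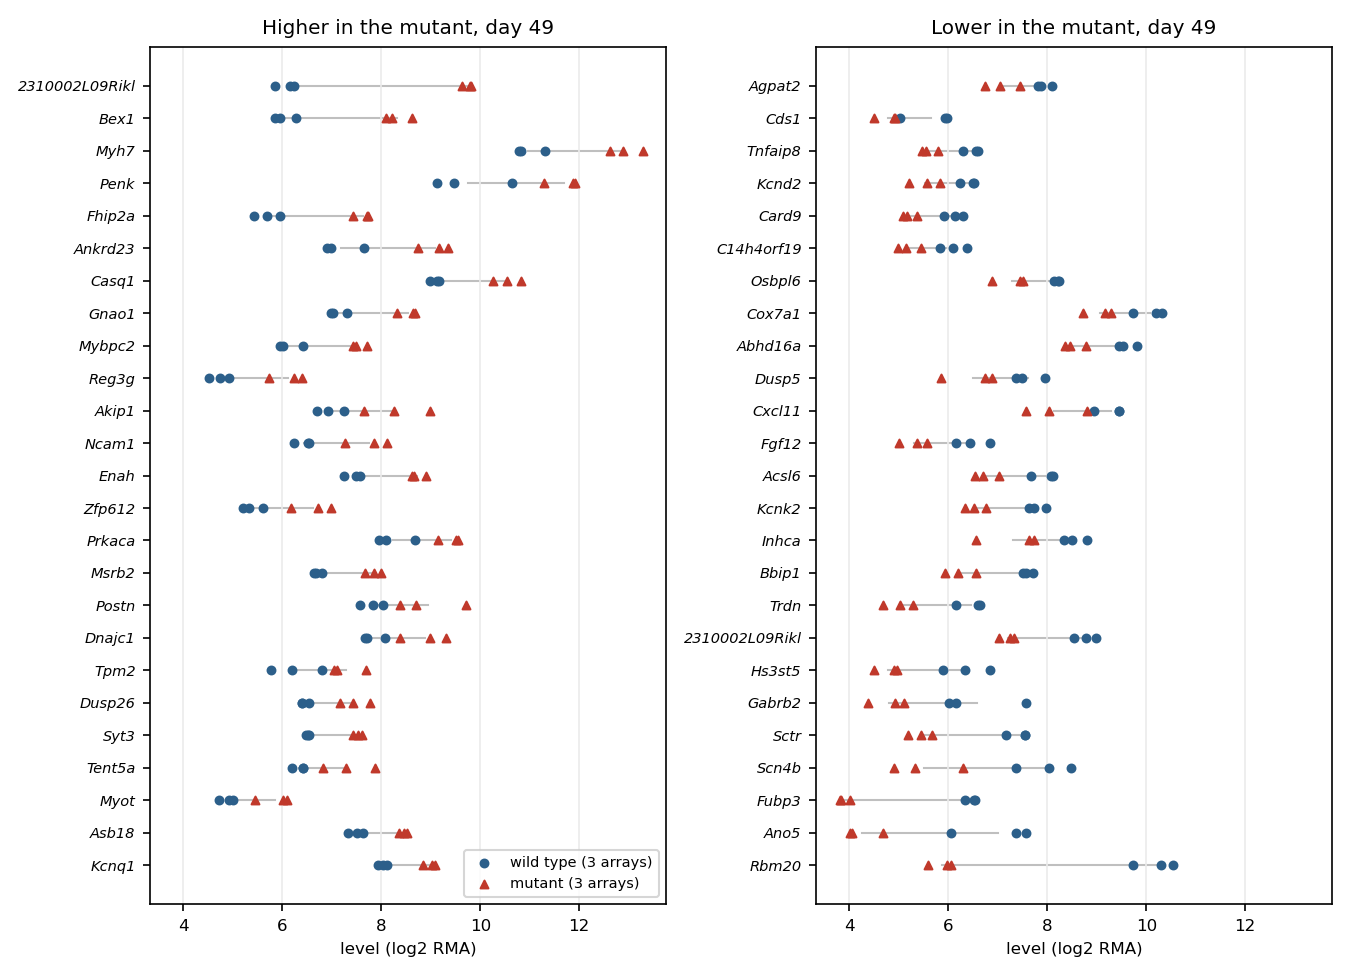
Level of each array at day 49 (log2 RMA, horizontal axis) for the 25 largest rises (left) and the 25 largest falls (right) among called probe sets with 1 gene symbol, with triangles for the 3 mutant arrays, circles for the 3 wild-type arrays and a line between the group means. The genotypes do not overlap for any gene shown, since that was part of the choice, and the differences run from 3.67 for a probe set of 2310002L09Rikl to -4.33 for Rbm20.

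The mutant arrays held little Rbm20 signal, which checks the labels. Its brighter probe set stood at 6.06, 5.58 and 5.97 in the mutant and at 10.29, 10.54 and 9.74 in the wild type. All 3 mutant arrays were thus more than 3 units below the lowest wild-type array, a fall by 4.33 ± 0.20 (SE, limma, 3 arrays per genotype, adjusted p = 6.01e-10). The mutant levels lay near the array medians, where signal is mostly background, so no fold is given. The second Rbm20 probe set fell by 1.09 ± 0.15 (adjusted p = 0.000822). Of 20 measured splicing regulators of muscle, Rbm20 included, Rbm20 was the only one called, and the median of the list was -0.05. When each gene is read by its brightest probe set, 110 of 14217 genes (0.774%) were called. This is the share to set beside the calls of every list below. Khdrbs3, a splicing regulator of the STAR family, was at -0.33 ± 0.10 (adjusted p = 0.241), and Rbfox1 at -0.40 ± 0.18 (adjusted p = 0.577).

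Titin RNA itself did not pass the test. The Ttn probe set stood at 12.84, 12.87 and 12.65 in the mutant and 12.73, 12.61 and 12.83 in the wild type, so that the groups overlapped (0.06 ± 0.10, adjusted p = 0.959). These probe sets lie mainly at transcript ends and read total RNA of a gene, not its splice forms. The list of 27 genes known as RBM20 splice targets draws in part on work with this rat line and is therefore not independent of it. Of these genes 2 were called, beside 0.774% of all genes. Enah, an actin regulator of the Ena/VASP family, rose from 7.25, 7.56 and 7.49 to 8.66, 8.62 and 8.91, by 1.30 ± 0.12 (adjusted p = 6.45e-06). Its dimmer probe sets did not pass (0.43 ± 0.16 and -0.01 ± 0.16). Mlip, a muscle protein that binds lamin, fell by 0.66 ± 0.10 (adjusted p = 0.00365). Both held their calls whichever of the 6 arrays was left out. Of the 25 target genes not called, Lrrfip1 stood at 0.41 ± 0.12 (adjusted p = 0.213) and Zfp106 at -0.34 ± 0.10 (adjusted p = 0.201).

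Triadin, which anchors the calcium release complex of the sarcoplasmic reticulum and is also spliced by RBM20, was read by 4 probe sets that disagreed. A dim one fell from 6.15, 6.60 and 6.63 in the wild type to 5.02, 5.28 and 4.68 in the mutant, by 1.47 ± 0.31 (adjusted p = 0.0304), a call that ended whichever of the 6 arrays was left out (adjusted p up to 0.144). The brighter Trdn probe sets were at -0.57 ± 0.16 (adjusted p = 0.145) and -0.28 ± 0.16 (adjusted p = 0.724).

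Of 19 genes of the thick filament and M-band, Myh7 and Mybpc2 rose and no other was called, beside 0.774% of all genes called. Myh7, the beta myosin heavy chain of the fetal and slow-muscle sarcomere, stood at 12.89, 12.63 and 13.28 in the mutant and 11.30, 10.79 and 10.82 in the wild type. Every mutant array was above every wild-type array by more than 1 unit, and the rise was 1.96 ± 0.19 (adjusted p = 1.5e-05), or 3.9-fold. A second Myh7 probe set was at 2.81 ± 0.69 and missed the threshold (adjusted p = 0.0818). Its arrays read 9.62, 9.11 and 9.90 against 7.01, 6.45 and 6.73 and did not overlap, and the SE is that of a model over all ages. Myh6, the alpha heavy chain, stood at -0.16 ± 0.12 (adjusted p = 0.86). Mybpc2, the fast-skeletal form of myosin-binding protein C, read 7.43, 7.70 and 7.48 against 6.41, 6.02 and 5.96 and rose by 1.41 ± 0.12 (adjusted p = 3.03e-06). The median of the list was -0.01, and Mybpc1, the slow-skeletal form, was at -0.01 (adjusted p = 0.998).

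The actin side and the Z-disc showed scattered calls. Lmod3, a leiomodin that nucleates thin filaments, fell by 0.71 ± 0.10 (adjusted p = 0.000905) and was the 1 call among 20 thin-filament genes, median 0.02. Tpm2, beta-tropomyosin, gave different answers by probe set: a dim one rose by 1.02 ± 0.20 (adjusted p = 0.0214; not called without M1, W1 or W2, adjusted p up to 0.129), and the brighter one was at 0.33 ± 0.17 (adjusted p = 0.664). Acta1, the skeletal alpha-actin that marks cardiac stress, was at 0.19 ± 0.12 (adjusted p = 0.805).

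Of 32 Z-disc and titin-binding genes, 3 were called, all higher, beside 0.774% of all genes, and the median was 0.05. Ankrd23, a titin-binding ankyrin-repeat protein of the stretch-responsive MARP family, stood at 8.74, 9.17 and 9.34 in the mutant and 7.65, 6.99 and 6.91 in the wild type. The lowest mutant array was more than 1 unit above the highest wild-type array, and the rise was 1.90 ± 0.24 (adjusted p = 0.000237), or 3.73-fold. Its family member Ankrd1 did not pass (0.24 ± 0.14, adjusted p = 0.745). Myot, myotilin, which crosslinks actin at the Z-disc, rose by 0.97 ± 0.17 (adjusted p = 0.0076) and Synpo2l, an actin-bundling Z-disc protein, by 0.53 ± 0.10 (adjusted p = 0.0121). Myot was not called without M3 or W3 (adjusted p up to 0.059), and Synpo2l without M1, W1 or W2 (up to 0.0846). Csrp3, the muscle LIM protein of the Z-disc, was at 0.36 ± 0.08 (adjusted p = 0.0601).

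Genes of hypertrophy and wall stress leaned higher in the mutant. Of 26 measured, 23 were higher and 5 called (Myh7, Ankrd23, Enah, Postn and Synpo2l), beside 0.774% of all genes called. The median was 0.25, beside 0.01 over all probe sets. At day 20 and day 1 the list median was 0.32 and 0.14. The natriuretic peptides were not called. Nppa, the atrial natriuretic peptide, stood at 12.16, 12.18 and 13.75 in the mutant and 11.30, 10.92 and 11.54 in the wild type. The groups did not overlap, the third mutant array was the highest, and the difference of 1.45 ± 0.33 missed the threshold (adjusted p = 0.0597). It passed without M1 or M2 (adjusted p = 0.035 and 0.0448) and was 0.92 without M3 (adjusted p = 0.167). Nppb, the ventricular stress marker, read 11.99, 12.05 and 12.61 against 12.27, 11.81 and 11.93 and overlapped (0.21 ± 0.24, adjusted p = 0.93).

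The extracellular matrix moved by small steps. Of 58 collagen and matrix genes 55 were higher in the mutant, the median was 0.29, and 19 did not overlap, all of them higher, beside 14.9% of all genes. Only Postn, periostin, the matricellular protein of activated fibroblasts, was called. It stood at 8.38, 8.71 and 9.72 in the mutant and 7.84, 8.04 and 7.57 in the wild type, a rise by 1.12 ± 0.23 (adjusted p = 0.0289). The third mutant array was a full unit above the other two, and the call ended without it, or without any wild-type array (adjusted p up to 0.149, difference at least 0.73). Ccn2, connective tissue growth factor, was at 1.28 ± 0.31 (adjusted p = 0.076) and Col1a1, the main chain of type I collagen, at 0.56 ± 0.17 (adjusted p = 0.223). The median of the matrix list was 0.20, 0.22 and 0.39 on mutant arrays 1 to 3 against the wild-type mean. The list median was 0.09 at day 20 and 0.04 at day 1.

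Markers of other cells shifted with single mutant arrays. In bulk tissue, more cells of a type and more RNA per cell cannot be told apart. The 20 fibroblast genes had a median of 0.14 and none called, with 17 higher. Of 21 atrial and conduction genes 0 were called and the median was 0.05, but mutant array 3 was high in several. Myl4, the atrial essential light chain, stood at 6.63, 7.27 and 9.35 in the mutant and 5.80, 6.12 and 5.96 in the wild type (1.79 ± 0.50, adjusted p = 0.155, or 2.35 and 0.0355 without M1). Myl7, the atrial regulatory light chain, stood at 6.22, 6.49 and 10 in the mutant and 6.56, 10.67 and 8.34 in the wild type. Sln, the atrial calcium-pump regulator sarcolipin, read 5.62, 5.25 and 8.08 against 6.82, 5.01 and 5.25. Myl7 was thus high on mutant array 3 and wild-type array 2. The signs of both differences rest on 1 array: Sln was at 0.62 and at -0.26 without M3, and Myl7 at -0.95 and at 0.12 without W2. The groups overlapped for both, and the part of atrial RNA in the Nppa and Postn differences was not tested.

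Blood and proliferation genes were highest on mutant array 1. Of 9 erythroid genes 8 were higher in the mutant with none called (median 0.45), and Alas2, the erythroid heme synthesis enzyme, stood at 10.76 there and at 9.30 and 9.29 on the other mutant arrays, with 8.85, 8.27 and 8.72 in the wild type. The array's own median was 0.91 for the erythroid list and 0.44 for 48 cell cycle genes, against 0.10 and 0.23, and 0.13 and 0.11, on mutant arrays 2 and 3. Over all 3 arrays 42 of the 48 cell cycle genes were higher, with a median of 0.23 and none called, Cks2 and Cdk1 being nearest (0.85 ± 0.22 and 0.71 ± 0.20, adjusted p = 0.103 and 0.16; Cks2 passed without M2, adjusted p = 0.0487). Without M1 the median was 0.19 for the erythroid and 0.10 for the cell cycle genes. In the animals of day 20 the cell cycle list had a median of 0.32 and the erythroid list of 0.08. At day 1 these medians were 0.06 and -0.14.

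**Figure D2:**
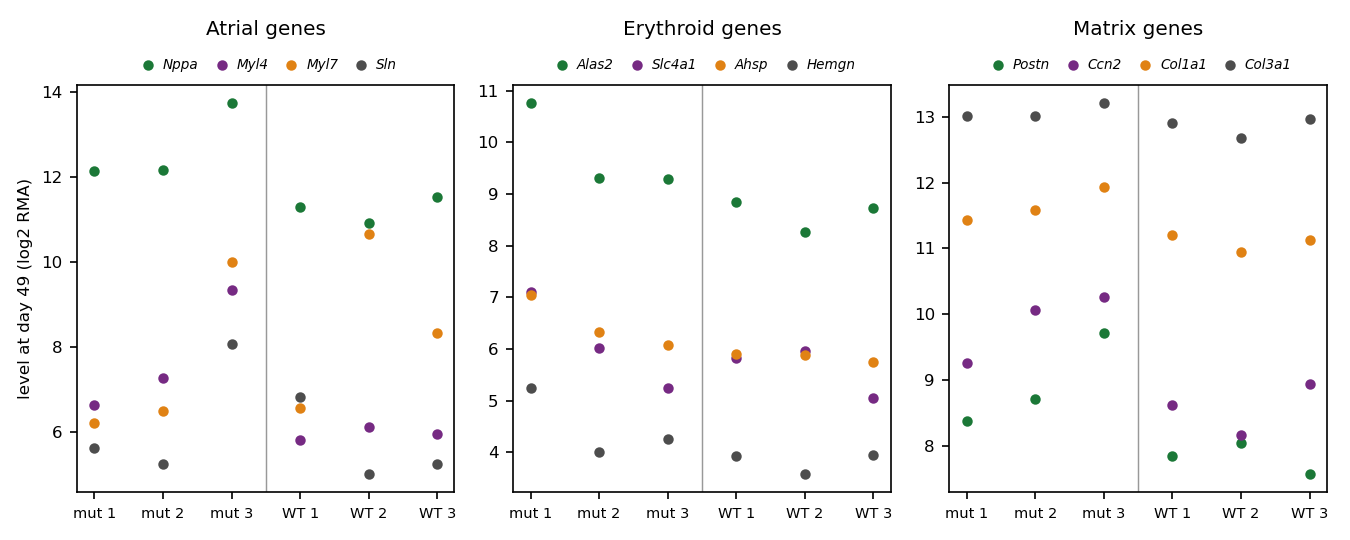
Level (log2 RMA) on each of the 6 arrays of day 49 for 4 atrial, 4 erythroid and 4 matrix genes, with mutant arrays left and wild-type arrays right of the line in each panel. Nppa, Myl4 and Postn are highest on mutant array 3, the erythroid genes are highest on mutant array 1, and Myl7 is high on mutant array 3 and wild-type array 2.

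Several genes of channels and related membrane proteins fell by more than 1 unit. Ano5, an anoctamin of muscle membranes, stood at 4.01, 4.06 and 4.68 in the mutant and 7.56, 7.37 and 6.06 in the wild type. No mutant array reached the lowest wild-type array, and it fell by 2.74 ± 0.31 (adjusted p = 9.02e-05). The mutant levels lay below the array medians, where signal is mostly background, so no fold is given. Scn4b, the beta-4 subunit of voltage-gated sodium channels, read 5.33, 4.89 and 6.29 against 8.03, 8.47 and 7.36 and fell by 2.45 ± 0.31 (adjusted p = 0.000299), again with mutant levels near the array medians. Gabrb2, a GABA-A receptor subunit, fell by 1.78 ± 0.28 (adjusted p = 0.00296), to mutant levels of 4.91, 4.38 and 5.1, below the array medians. Its dimmer probe set was at -0.09 ± 0.12 and not called. Mutant array 3 was the highest of its group and one wild-type array was apart from the others for each of these 3 genes, and the calls held whichever of the 6 arrays was left out. Ano5 and Gabrb2 were the 2 calls among 25 chloride channel, anoctamin and GABA-A genes (median -0.02), and Scn4b the 1 call among 12 sodium channel and transporter genes (median 0.02). Scn3b, another sodium channel beta subunit, was at 0.54 ± 0.13 and missed the threshold (adjusted p = 0.0749).

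Potassium channels moved both ways. Kcnq1, the pore of the slow delayed rectifier, stood at 9.03, 9.09 and 8.85 in the mutant and 7.94, 8.04 and 8.11 in the wild type. Replicates were tight in both groups, and the rise was 0.96 ± 0.10 (adjusted p = 1.64e-05), or 1.94-fold. Kcnd2, a pore subunit of the transient outward current, fell by 0.88 ± 0.17 (adjusted p = 0.0189), and Kcnj11, the pore of the ATP-sensitive channel, by 0.59 ± 0.13 (adjusted p = 0.0379). Kcnd2 was not called without M1, M3, W1 or W3 (adjusted p up to 0.11), and the call of Kcnj11 ended whichever of the 6 was left out (up to 0.17). Dimmer probe sets of Kcnd2 (-0.62 ± 0.17) and Kcnj11 (-0.11 ± 0.14 and -0.46 ± 0.15) were not called. Of 29 potassium channel genes, Kcnq1, Kcnd2 and Kcnj11 were called, beside 0.774% of all genes, and 18 were lower (median -0.05). Kcnk2, the stretch-sensitive TREK-1 channel, fell by 1.24 ± 0.22 by one probe set (adjusted p = 0.00739), which was not called without W2 (adjusted p = 0.0578). The other Kcnk2 probe set, brighter over all 18 arrays, was at -0.05 ± 0.10 and not called. Fgf12, an intracellular FGF that binds sodium channels, fell by 1.17 ± 0.19 by one probe set (adjusted p = 0.00401) and was at -1.27 ± 0.33 by a brighter one (adjusted p = 0.103). The brighter one was called in a limma fit on the 6 arrays of day 49 alone (adjusted p = 0.00364). Kcna2, a delayed rectifier subunit, and Kcnd3, the partner of Kcnd2 in the transient outward current, were chosen after their values were seen. By 1 probe set each they fell by 0.83 ± 0.12 and 0.71 ± 0.13 (adjusted p = 0.00128 and 0.011). Their probe sets of highest mean over all 18 arrays were not called (-0.16 ± 0.12 and -0.59 ± 0.16). For Kcna2 that probe set was the dimmer one in the wild type at day 49 (6.13 against 6.62).

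Calcium handling genes held a single large step, Casq1. This skeletal calsequestrin, a calcium buffer of the sarcoplasmic reticulum, stood at 10.83, 10.54 and 10.26 in the mutant and 9.16, 9.13 and 8.99 in the wild type. The groups lay more than 1 unit apart, and the rise was 1.45 ± 0.15 (adjusted p = 1.95e-05), or 2.74-fold. It was the 1 gene called of 37 when each is read by its brightest probe set (median -0.01). Casq2, the cardiac form, was at 0.24 ± 0.09 (adjusted p = 0.362). Casq1 and Mybpc2 were also the 2 calls among 27 skeletal muscle markers (median 0), whose defining genes were dim on all 6 arrays: Myh3 lay at 4.50 to 5.02, Tnni2 at 4.39 to 5.10, Tnnt3 at 4.80 to 5.16 and Pvalb at 4.53 to 4.83.

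Gnao1, the G protein alpha subunit most abundant in neurons, stood at 8.64, 8.31 and 8.68 in the mutant and 7.31, 6.99 and 7.03 in the wild type, and rose by 1.44 ± 0.20 (adjusted p = 0.000693). Prkaca, the catalytic alpha subunit of protein kinase A, rose from 7.95, 8.67 and 8.10 to 9.54, 9.51 and 9.15, by 1.16 ± 0.21 (adjusted p = 0.0103). These 2 were the calls among 40 adrenergic and G-protein genes, median 0.05. Gnao1 held whichever array was left out, whereas Prkaca was not called without M1, M2, W1 or W3 (adjusted p up to 0.0843). Akip1, which binds the protein kinase A catalytic subunit, rose by 1.34 ± 0.26 by one probe set (adjusted p = 0.0155; not called without M2, M3, W1 or W3, up to 0.11) and by 1.34 ± 0.22, 1.11 ± 0.19 and 1.03 ± 0.20 by 3 others, and its 4 further probe sets were not called.

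Penk, the enkephalin precursor, read 11.92, 11.88 and 11.28 in the mutant and 9.13, 10.64 and 9.46 in the wild type. It rose by 1.95 ± 0.36 (adjusted p = 0.011), or 3.87-fold, and was not called without M1, M2, W1 or W3 (up to 0.0942). Sctr, the secretin receptor, stood at 5.19, 5.67 and 5.45 in the mutant and 7.55, 7.55 and 7.17 in the wild type. Its groups were narrow and far apart, and it fell by 1.99 ± 0.15 (adjusted p = 8.96e-07), to mutant levels near the array medians. The remaining 37 of 39 peptide hormone, opioid and receptor genes were not called, and the median was 0.06.

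Fuel metabolism leaned lower by small steps. Of 53 genes of fatty acid oxidation and ketone use, 48 were lower in the mutant and 3 called, beside 0.774% of all genes, and the median was -0.22. The 17 that did not overlap, beside 14.9% of all genes, were all lower. Acsl6, which activates long-chain fatty acids, read 7.02, 6.69 and 6.54 against 7.66, 8.07 and 8.11 and fell by 1.20 ± 0.15 (adjusted p = 0.000183). Bdh1, the mitochondrial enzyme that oxidises the ketone body 3-hydroxybutyrate, fell by 0.62 ± 0.13 (adjusted p = 0.0367) and Hadh, a dehydrogenase of the beta-oxidation spiral, by 0.49 ± 0.10 (adjusted p = 0.0216). The call of Bdh1 ended whichever of the 6 arrays was left out (adjusted p up to 0.162), and Hadh was not called without M1, M3, W1 or W2 (up to 0.137). A second Bdh1 probe set overlapped and was not called (-0.34 ± 0.19). The median of the list was -0.22, -0.06 and -0.35 on mutant arrays 1 to 3 against the wild-type mean, so the second array departed least. The list median was also below zero at day 20 (-0.11) and day 1 (-0.18). Plin5, which coats lipid droplets in oxidative muscle, was at -0.78 ± 0.24 (adjusted p = 0.208).

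Of 25 genes of the tricarboxylic acid cycle 24 were lower, with a median of -0.15, beside -0.07 at day 20 and -0.01 at day 1. Of these, 15 did not overlap, beside 14.9% of all genes, and all were lower. None was called, and the nearest was Pdhx, a component of the pyruvate dehydrogenase complex (-0.57 ± 0.13, adjusted p = 0.0549). Cox7a1, the heart and muscle isoform of a cytochrome oxidase subunit, stood at 9.28, 8.73 and 9.17 in the mutant and 9.74, 10.20 and 10.31 in the wild type. It fell by 1.02 ± 0.18 (adjusted p = 0.00675; not called without W3, adjusted p = 0.0539) and was the 1 call among 24 cytochrome oxidase and cytochrome c genes, median -0.05. Of 41 genes of glycolysis, glucose and glycogen 30 were lower, with a median of -0.11. Pgam2, the muscle phosphoglycerate mutase, fell by 0.71 ± 0.14 (adjusted p = 0.0168) and Ugp2, which makes UDP-glucose for glycogen, by 0.54 ± 0.09 (adjusted p = 0.00446). Pgam2 was not called without M1, M3, W1 or W2 (adjusted p up to 0.112). Gamt, the last enzyme of creatine synthesis, fell by 0.60 ± 0.12 (adjusted p = 0.0171; not called without M1 or W3, adjusted p up to 0.114) and was the 1 call among 36 creatine, adenylate and amino acid genes, median -0.06.

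**Figure D3:**
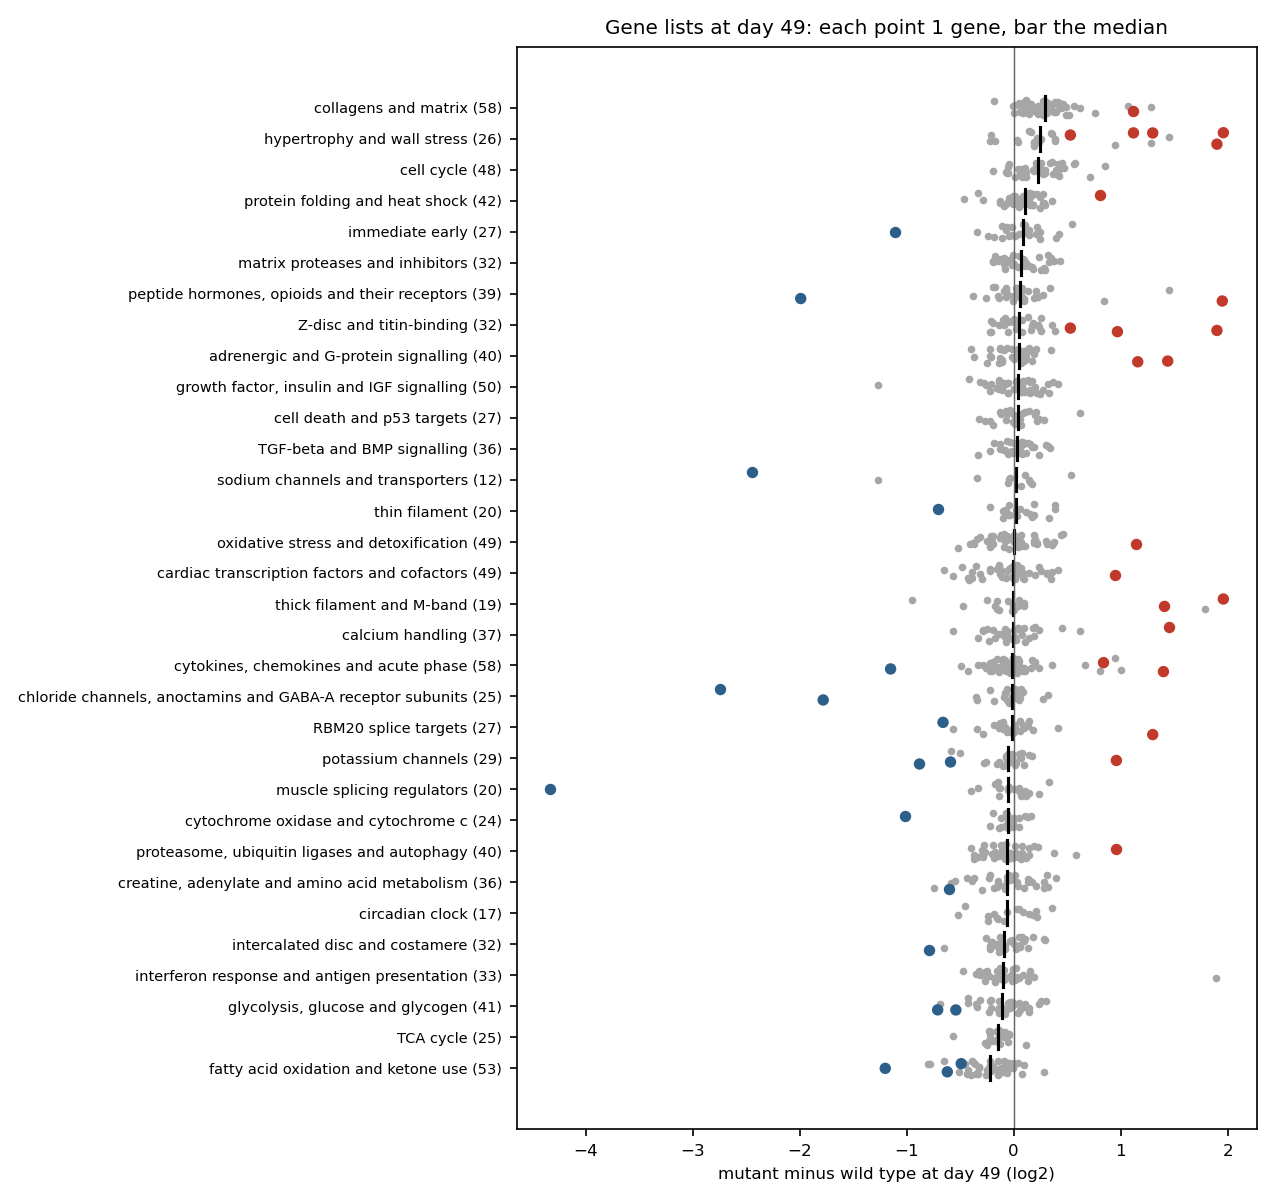
Difference between mutant and wild type at day 49 (log2, horizontal axis) for every measured gene of the 32 lists that are not cell type markers, with the number of genes in brackets, black bars for list medians, grey points for genes not called and coloured points for called genes (red higher, blue lower). The medians run from 0.29 for collagens and matrix to -0.22 for fatty acid oxidation and ketone use, and called genes lie on both sides of zero.

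Stress, turnover and regulatory lists each held few calls. Hspb3, a small heat-shock protein of muscle, rose by 0.81 ± 0.10 (adjusted p = 0.000315) and was the 1 call among 42 protein folding genes, of which 30 were higher (median 0.11). Asb18, an ankyrin-repeat protein of the SOCS-box ubiquitin ligase family, rose by 0.96 ± 0.13 (adjusted p = 0.000737) among 40 proteasome, ligase and autophagy genes. Msrb2, the mitochondrial methionine sulfoxide reductase, rose by 1.14 ± 0.13 (adjusted p = 6.66e-05) among 49 genes of oxidative stress. These 3 calls held whichever array was left out.

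Irx4, a transcription factor of the ventricle, rose by 0.95 ± 0.20 (adjusted p = 0.0327; not called without M1, M2, W1 or W3, adjusted p up to 0.181) and was the 1 call among 49 cardiac transcription factors. Dusp5, a nuclear phosphatase of ERK, fell by 1.11 ± 0.23 (adjusted p = 0.0257; not called without M2, W1 or W3, up to 0.169) among 27 immediate early genes. Gja3, a connexin, fell by 0.79 ± 0.16 (adjusted p = 0.0235) among 32 genes of the intercalated disc and costamere. It was not called without M1, M3, W1, W2 or W3 (adjusted p up to 0.125).

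Of 58 cytokine, chemokine and acute-phase genes 3 were called, in both directions, beside 0.774% of all genes, and the median was -0.02. Reg3g, an antimicrobial lectin, rose by 1.40 ± 0.30 (adjusted p = 0.0359), and Cxcl11, an interferon-induced chemokine, fell by 1.15 ± 0.23 (adjusted p = 0.024). Wild-type levels of Reg3g (4.51 to 4.91) lay below the array medians. Ccl5, a chemokine of T cells, read 8.87, 8.79 and 8.80 against 7.57, 8.53 and 7.83 and rose by 0.84 ± 0.16 (adjusted p = 0.0178). All 3 lost the call without single arrays: Reg3g without M2, M3, W1, W2 or W3 (adjusted p up to 0.174), Cxcl11 without M2, M3, W2 or W3 (up to 0.129), Ccl5 without M1, M2, M3, W1 or W3 (up to 0.113). Of the T cell markers, Lck stood at 0.24 ± 0.12 (adjusted p = 0.649) and Cd4 at -0.14 ± 0.11 (adjusted p = 0.867), and 28 leukocyte markers had a median of 0.19, 24 of them higher and none called. Coro1a, a leukocyte actin regulator, was at 0.48 ± 0.17 (adjusted p = 0.339) and passed without W2 (adjusted p = 0.0201).

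None was called among matrix proteases and their inhibitors (32 genes), TGF-beta and BMP signalling (36), growth factor and insulin signalling (50), cell death and p53 targets (27), the interferon response (33) or the circadian clock (17), with medians between -0.10 and 0.07. Among those nearest the threshold there were Serpine2, a serine protease inhibitor (0.43 ± 0.14, adjusted p = 0.276), Igfbp7, a secreted IGF-binding protein (0.41 ± 0.10, adjusted p = 0.0738), Tgfb2 (0.34 ± 0.12, adjusted p = 0.323) and the clock repressor Nr1d1 (-0.52 ± 0.23, adjusted p = 0.542). Endothelial (22), smooth muscle and pericyte (17), adipocyte (13), neuronal and Schwann cell (20), epicardial (11) and thymocyte (8) markers also held no call, with medians between -0.04 and 0.08. Over all 44 lists 1180 of 1307 genes were measured and 37 called, beside 0.774% of all genes. The lists were chosen with earlier results of these data known, so these counts are a description only.

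Several of the largest steps lay outside these lists. 2310002L09Rikl, a gene known only by a clone-derived symbol, stood at 9.81, 9.80 and 9.64 in the mutant and 6.16, 5.85 and 6.24 in the wild type, and rose by 3.67 ± 0.15 (adjusted p = 1.88e-10). Its probe sets disagreed: another rose by 1.64 ± 0.16 (adjusted p = 1.14e-05) and the last fell by 1.57 ± 0.15 (adjusted p = 1.44e-05). Bex1, a brain-expressed X-linked adaptor, read 8.10, 8.22 and 8.62 against 5.85, 6.27 and 5.95 and rose by 2.29 ± 0.16 (adjusted p = 2.14e-07). Fhip2a, an adaptor of endosomal transport, rose by 1.93 ± 0.16 (adjusted p = 1.57e-06), and Ncam1, the neural cell adhesion molecule, by 1.32 ± 0.16 (adjusted p = 0.000233). Zfp612, a zinc-finger protein, rose by 1.24 ± 0.18, Dnajc1, an endoplasmic reticulum co-chaperone, by 1.07 ± 0.17, Dusp26, a dual-specificity phosphatase, by 1.01 ± 0.17, and Syt3, a calcium sensor of vesicle fusion, by 1.01 ± 0.12. The calls of these genes, from 2310002L09Rikl to Syt3, held whichever array was left out. Dimmer probe sets of Ncam1 (0.07 and -0.09), Zfp612 (0.20), Dnajc1 (0 and -0.14) and Syt3 (0.22) were not called. Tent5a, a poly(A) polymerase, rose by 0.99 ± 0.19 (adjusted p = 0.0133) and was not called without W1 or W2 (adjusted p up to 0.0872). Its other probe sets were at 0.12 and 0.09, neither called.

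Among the falls outside the lists, Bbip1, a subunit of the ciliary BBSome, fell by 1.37 ± 0.15 (adjusted p = 6.38e-05) and Hs3st5, a heparan sulfate sulfotransferase, by 1.58 ± 0.18 (adjusted p = 8.38e-05). Fubp3, a far-upstream-element binding protein, stood at 4.02, 3.82 and 3.80 against 6.52, 6.33 and 6.53 by one probe set, a fall by 2.58 ± 0.53 (adjusted p = 0.0287) whose call ended whichever of the 6 arrays was left out (adjusted p up to 0.121), while a brighter one was at 0.24 ± 0.12. The SE is that of a model over all ages, which is wide for this probe set although the arrays of day 49 were tight. Wild-type arrays of this probe set had an SD of 1.6 at day 20 and 1.03 at day 1. The mutant stood higher at these ages (0.48 and 0.63, neither called). Card9, an adaptor of innate immune receptors, fell by 0.91 ± 0.11 and Osbpl6, an oxysterol-binding protein, by 0.92 ± 0.15. These calls, with those of Bbip1 and Hs3st5, held whichever array was left out. Mutant levels of Hs3st5 (4.49 to 4.96) and Card9 (5.08 to 5.37) lay below the array medians.

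Agpat2, which makes phosphatidic acid, fell by 0.86 ± 0.16 (adjusted p = 0.01), Cds1, which turns it into CDP-diacylglycerol, by 0.87 ± 0.19 (adjusted p = 0.0338), and Abhd16a, a phosphatidylserine lipase, by 1.06 ± 0.20 (adjusted p = 0.0155). Agpat2 was not called without M3 or W2 (adjusted p up to 0.0761), Cds1 without M1, M2, M3, W2 or W3 (up to 0.198), and Abhd16a without M1, M3, W2 or W3 (up to 0.108). Mutant levels of Cds1 (4.5 to 4.92) lay below the array medians. Tnfaip8, an apoptosis regulator induced by TNF, fell by 0.88 ± 0.16 (not called without M1, M2, W2 or W3, adjusted p up to 0.074). C14h4orf19 fell by 0.91 ± 0.16 (not called without W1, adjusted p = 0.0563) and Inhca, an inhibitor of carbonic anhydrase, by 1.24 ± 0.24 (not called without W1 or W2, up to 0.11). A further 54 called probe sets had no gene symbol in the annotation, 13 higher and 41 lower, with differences from -4.99 to 2.12.

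Most of the differences called at day 49 had the same direction at day 20. Of the 188 probe sets, 177 (94.1%) had the same sign at day 20, beside 57.7% of all probe sets, and 153 (81.4%) at day 1, beside 51.9%. The ages are separate animals, but all 18 arrays enter the model's spread and so bear on which probe sets were called. Of the 175 (0.564%) called in a fit on the 6 arrays of day 49 alone, 162 (92.6%) had the same sign at day 20 and 133 (76.0%) at day 1. The median of the probe sets called higher was 0.44 at day 20 and 0.14 at day 1, and that of those called lower -0.31 and -0.16. Because the probe sets were chosen by their difference at day 49, smaller medians at the other ages can follow from the choice alone. Fewer passed the test there: the comparison called 43 probe sets at day 20 (0.139%) and 34 at day 1 (0.11%). In all, 28 were called with the same sign at both day 49 and day 20, 14.9% of the calls at day 49 and 65.1% of those at day 20, and 9 at both day 49 and day 1 (4.79% and 26.5%). Rbm20, Fhip2a and Bbip1 were called with the same sign at all 3 ages. No coordinate was used, so whether Fhip2a and Bbip1 lie near Rbm20 on the chromosome was not tested.

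**Figure D4:**
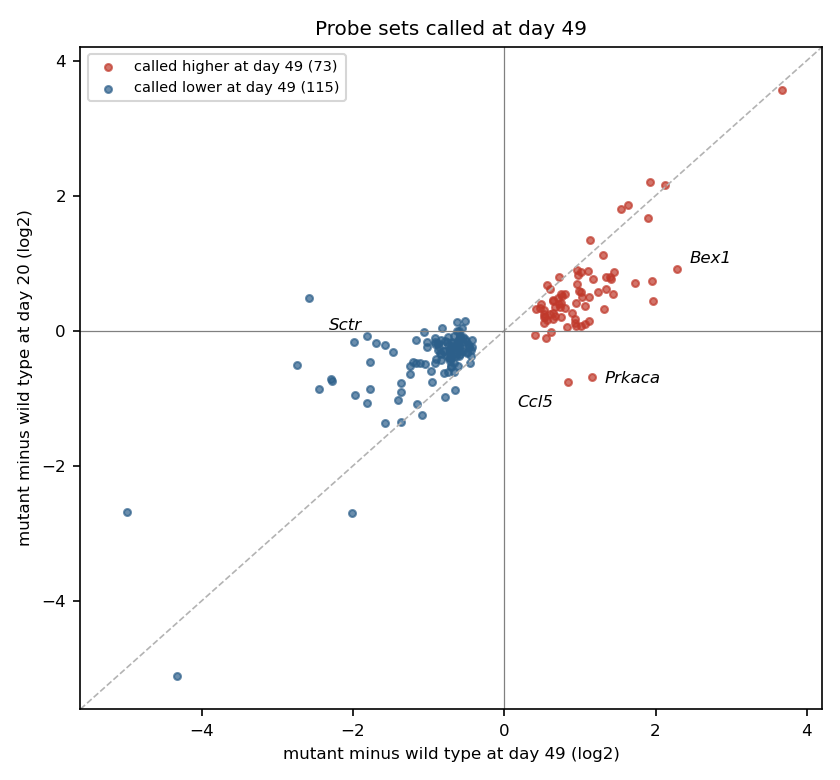
Difference between mutant and wild type at day 20 (log2, vertical axis) against that at day 49 (horizontal axis) for the 188 probe sets called at day 49, red for the 73 called higher and blue for the 115 called lower, with a dashed line where both are equal. Of these, 177 have the same sign at both ages, and Prkaca and Ccl5 lie on opposite sides of zero.

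The age at which a gene was first called varied. Kcnq1 differed already at day 20 (0.90, adjusted p = 8.89e-05) as did Enah (1.12, adjusted p = 8.89e-05), Msrb2 (1.35, adjusted p = 1.69e-05), Ankrd23 (1.67, adjusted p = 0.00283), Mybpc2 (0.77, adjusted p = 0.00865), Casq1 (0.87, adjusted p = 0.0178), Hspb3 (0.55, adjusted p = 0.0427) and Mlip (-0.61, adjusted p = 0.0178), and none of these 8 was called at day 1. Myh7 was at 0.44 at day 20, Scn4b at -0.86, Ano5 at -0.50 and Ncam1 at 0.32, none of them called. Pgam2 was called at day 1 (-0.87, adjusted p = 0.0139) and not at day 20 (-0.45, adjusted p = 0.567).

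The change of the genotype effect was tested as the effect at day 49 minus that at day 20 or day 1. Against day 20 it was called for 6 probe sets (0.0193%, 3 in each direction), 4 of them with a symbol. Sctr changed by -1.81 ± 0.22 (adjusted p = 0.00448) and Bex1 by 1.39 ± 0.22 (adjusted p = 0.0398). Prkaca and Ccl5 stood lower in the mutant at day 20 (-0.68 and -0.76, neither called) and rose at day 49, so their effects changed by 1.84 ± 0.30 and 1.60 ± 0.23 (adjusted p = 0.043 and 0.0183). This count was 2 without mutant array 2, 1 without mutant array 3, 3 without wild-type array 1 and 2 without wild-type array 3. Against day 1 it was called for 32 probe sets (0.103%, 12 positive and 20 negative), among them Ano5 (-2.71), Scn4b (-2.43), Bex1 (2.27), Myh7 (1.89), Mybpc2 (1.23) and Kcnq1 (0.92), and the count was 16 without mutant array 1. An effect called at one age and not at another is not shown to differ outside these tests.

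The called probe sets were set against the change of the wild-type heart with age. Between day 1 and day 20 the wild-type mean went down for 56 of the 73 probe sets called higher at day 49 (76.7%, beside 43.3% of all probe sets), with a median change of -0.56. It went up for 87 of the 115 called lower (75.7%, beside 56.7%), with a median change of 0.50; the median over all was 0.04. Arrays of these ages enter the day 49 test through the model's spread only, and with the calls of the 6 arrays alone the counts were 54 of 71 (76.1%) and 81 of 104 (77.9%). The change with age in single probe sets was not tested here.

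Mean Myh7 in the wild type was 13.94, 13.11 and 10.97 at days 1, 20 and 49, and in the mutant 14.01, 13.55 and 12.93, so the mutant mean at day 49 lay within 1 unit of both genotypes at day 20. Bex1 went from 11.37 to 7.62 and 6.02 in the wild type and from 11.39 to 8.53 and 8.31 in the mutant. Among genes that went up with age, Scn4b averaged 4.50, 5.33 and 7.95 in the wild type and 4.48, 4.47 and 5.51 in the mutant, and Ano5 3.72, 4.52 and 6.99 against 3.68, 4.02 and 4.25. Sctr went from 4.76 at day 20 to 7.43 at day 49 in the wild type and from 4.59 to 5.44 in the mutant, and Cox7a1 from 7.98 to 10.08 against 7.81 to 9.06. Other genes had other courses. Kcnq1 moved little in the wild type (8.45, 8.02 and 8.03) and higher in the mutant from day 20 (8.49, 8.93 and 8.99). Casq1 in the mutant was highest at day 49 (10.04, 9.65 and 10.55, beside 9.53, 8.78 and 9.09 in the wild type). Penk was lowest at day 20 in both genotypes (7.36 in the wild type and 8.09 in the mutant) and stood at 9.74 and 11.69 at day 49.

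**Figure D5:**
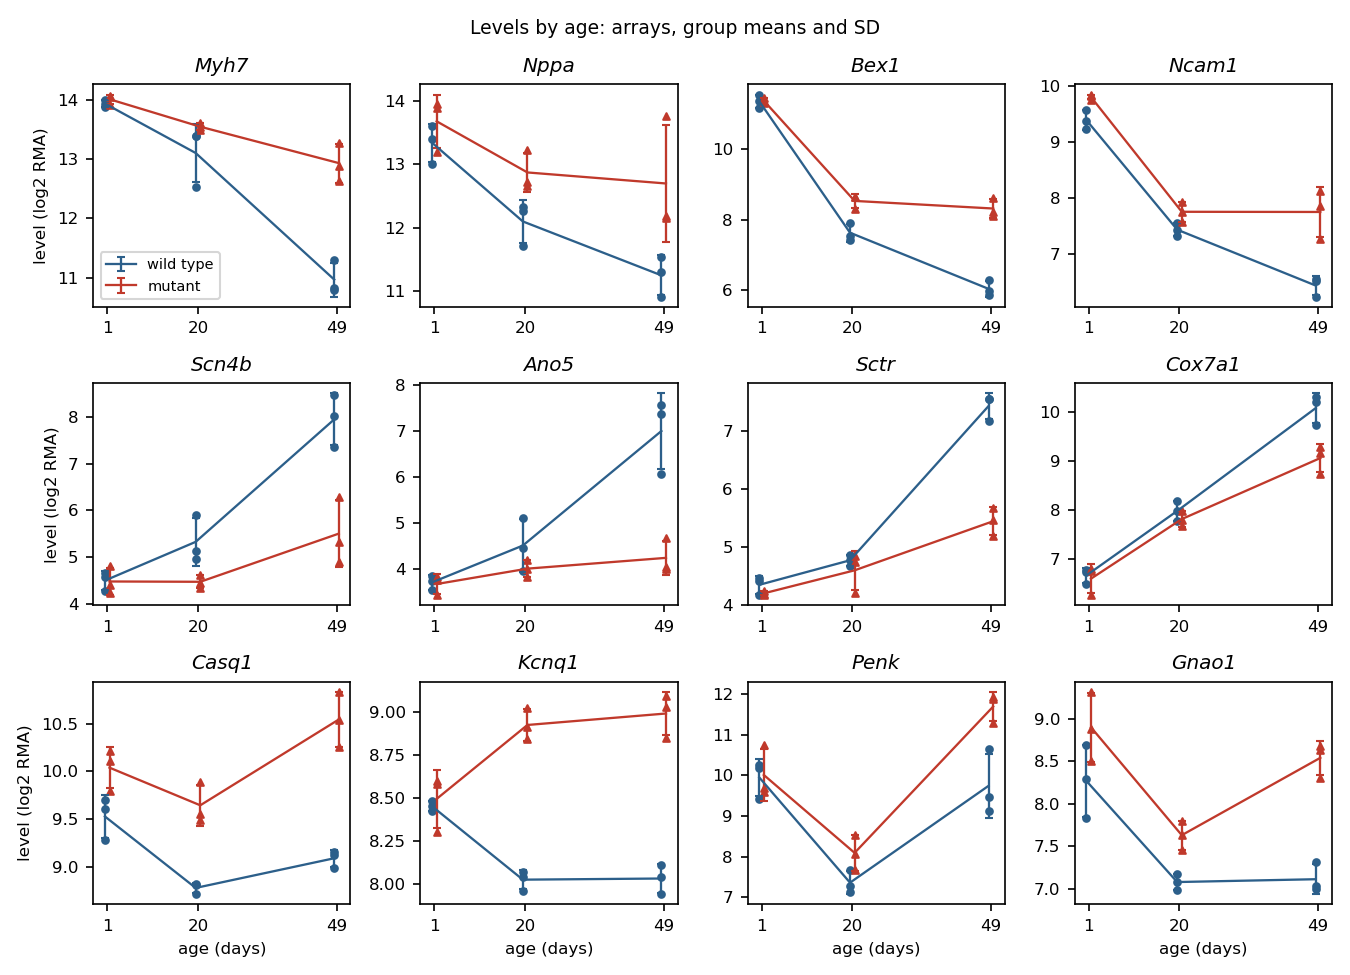
Level (log2 RMA, vertical axis) against age in days for 12 genes, with points for single arrays (3 per genotype and age) and lines and bars for group means and SD, blue for wild type and red for mutant. The wild-type and mutant courses of Myh7, Scn4b and Ano5 start together at day 1 and lie apart at day 49, while those of Kcnq1 are apart from day 20.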

How the data were processed

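RNA of 18 rat hearts was measured on Affymetrix Rat 230 2.0 arrays. The authors made the deposited log2 values by RMA, per the series design text and the submitters' processing notes, which name no version, and they were used unchanged. Of 31099 probe sets 57 controls were left out; of the 31042 tested, 20826 had 1 symbol in the platform annotation of that array, 436 several and 9780 none, and none was named from several.

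Tests used limma 3.58.1 (R 4.3.3) with a model of 6 groups over all 18 arrays (12 residual and 5.77 prior degrees of freedom), two-sided moderated tests and Benjamini-Hochberg adjustment over all probe sets. Errors are SE of the model. Arrays of a group are separate animals, and their number limits the precision. In lists each gene was read by its probe set of highest mean. Further probe sets of the named genes are not all given. The script was tested on simulated data.

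Named are the 25 largest rises and falls among called, non-overlapping probe sets with 1 symbol, always Ankrd1, Acta1, Myh6, Myh7, Nppa, Nppb, Rbm20 and Ttn, called list members, the 2 members of smallest p of lists without a call, and the 6 called of smallest p for each change of the effect. Other genes were chosen after their values were seen, among them those with no call that stand beside the lists. The members, lists and tests were chosen with earlier results of these data known. No sequence or coordinate was used: the reference tables at hand are of mouse and served only to match symbols (6 genes).

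Alternatives were leaving out each array, the replicate block, median centring, quantile normalization, a filter on dim probe sets, limma-trend, Xist as covariate, array weights, leaving out mutant arrays 1 and 2, the 6 arrays alone, 1 probe set per gene and stricter thresholds.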

Additional observations from a re-analysis of the deposited data

Results flagged for a closer look

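The genotype effect differed between ages by a test of the difference itself (limma, Benjamini-Hochberg adjustment) for 6 probe sets between day 49 and day 20 and for 32 between day 49 and day 1. Against day 20 the effect changed by 1.60 for Ccl5, -1.81 for Sctr, 1.84 for Prkaca and 1.39 for Bex1. Against day 1 it changed by -0.85 for Card9, -1.60 for Abhd16a, -1.48 for Fgf12, -1.65 for Hs3st5, -2.43 for Scn4b, -2.71 for Ano5 and -1.84 for Sctr. It changed upwards by 1.89 for Myh7, 0.98 for Msrb2, 1.23 for Mybpc2, 0.92 for Kcnq1, 2.99 for the brightest-rising probe set of 2310002L09Rikl and 2.27 for Bex1. Groups of 3 arrays are too small for a test of single outlying arrays.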

How the results depend on the processing

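Leaving out each array in turn gave 109 to 161 called probe sets (38 to 79 higher, 63 to 90 lower), 23 to 31 called list genes, and 1 to 8 and 16 to 29 changes of the effect against day 20 and day 1; 33 of the 63 named called probe sets kept their calls in all 6 fits. Without mutant arrays 1 and 2, which leaves 1 mutant array of day 49 assumed to vary like the other groups, there were 116 calls, 64 of them lower, and 74 of the 116 were among the 188. Of the 63 named called probe sets 33 lost their calls, 22 list genes were called, and Ttn (-0.07) and Cd4 (0.04), neither called, turned sign. With array weights 264 were called, 113 of them higher, with 12 and 51 changes of the effect. Only probe sets above the median mean level left 21 changes against day 1, and 1 probe set per gene left 76 lower. At an adjusted p below 0.01 there were 98 (40 higher, 58 lower), and with a log2 difference of at least 1, 65 (31 and 34). The other settings called 175 to 247, and 126 to 184 of these were among the 188. The replicate block called 184 (77 higher, 107 lower), 148 of them shared: Hadh, Kcnj11, Pgam2, Cds1, Trdn, Kcnd2, Cxcl11 and Postn lost their calls, and Nppa (adjusted p = 0.0154) and Pdhx (0.0456) gained them. Deviations of same-numbered arrays of day 49 correlated at -0.19, 0.22 and -0.12, and 1 of 3 mutant arrays correlated best with its own number. So few correlations cannot settle whether the numbers pair the animals, and the main fit did not pair them. Of the 105 probe sets chosen by the naming rule, only Ttn and Cd4 changed direction under any setting run; the atrial genes Sln and Myl7, outside it, turned sign without 1 array. The causes of these changes were not tested. Signal near background limits dim probe sets.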

Other observations

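The BEX and TCEAL genes, small adaptor-like proteins encoded together on the X chromosome, were looked up after Bex1 was seen to rise. Of 8 genes read by 9 probe sets, 8 probe sets were higher in the mutant at day 49, where the median difference over all probe sets was 0.01. Of the 9, 4 were called higher, beside 0.235% of all probe sets. Bex1, which prompted the search, was among the 4, so the count is a description only. Besides Bex1 these were Tceal5, at 5.41, 5.39 and 5.79 in the mutant and 4.63, 4.59 and 4.52 in the wild type (0.95 ± 0.13, limma, adjusted p = 0.00064), Tceal9 (0.81 ± 0.10, adjusted p = 0.000165) and a probe set of Bex3 (0.52 ± 0.10, adjusted p = 0.024). Tceal1 was the exception in sign (-0.17 ± 0.17, adjusted p = 0.913). In the wild type Tceal5 went from 8.49 at day 1 to 5.29 at day 20, Bex3 from 11.11 to 9.51 and Tceal9 from 10.94 to 9.80. Bex4 went from 7.97 to 3.97 and did not pass at day 49 (0.14 ± 0.18, adjusted p = 0.951).

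Genes of nerve and synapse, also picked after their values were seen, moved both ways. Map1b, a microtubule protein of growing axons, rose by 0.75 ± 0.14 (adjusted p = 0.011), and one of several probe sets of the GABA-B receptor gene Gabbr1 by 0.62 ± 0.13 (adjusted p = 0.0373). Cadps, which primes dense-core vesicles, fell by 0.72 ± 0.15 (adjusted p = 0.0264), one probe set of the adhesion protein gene Cntnap2 by 0.67 ± 0.12 (adjusted p = 0.00708), and one of the ankyrin gene Ank2 by 0.70 ± 0.11 (adjusted p = 0.00292); the other probe sets of these genes were not called.

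Among called probe sets without a symbol, the largest fall stood at 5.27, 5.28 and 5.53 in the mutant and 10.42, 10.32 and 10.30 in the wild type, a fall by 4.99 ± 0.37 (adjusted p = 5.4e-07), with -2.69 at day 20 and -1.74 at day 1. The largest rise stood at 7.84, 8.23 and 7.79 against 5.87, 5.65 and 5.99 (2.12 ± 0.18, adjusted p = 2.97e-06), with 2.15 at day 20 and 1.09 at day 1.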
